A study of Mus musculus with 4 samples.

Results

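The regions described here are weak ATAC-seq peaks called in mouse intestinal organoids after 72 h of BMP2, with no overlapping peak at 0 h. Members were chosen by peak calls alone: a region is a member when the 72 h library called it at a p-value threshold of 1e-05, the stricter 1e-10 list of that library did not hold it, and no 1e-05 peak of the 0 h library overlapped it by 1 bp or more. On chromosomes 1 to 19 and X this gave 7996 members, of 41036 peaks at 72 h there. Over all sequences the 72 h list holds 41343 peaks, and both libraries together hold 77200. All members have one length, set by the authors' extension of peak summits, and merging those that overlap each other leaves 7828 sites. "Weak" refers to the calling threshold only, since the deposited lists hold no peak height.

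ATAC-seq cuts open chromatin with the Tn5 transposase and sequences the released fragments, so that a peak marks DNA accessible in the cells sampled. The organoids, epithelial cultures without the surrounding tissue, derive from proximal small-intestinal crypts of C57BL/6J mice, and each library was made from 30000 cells. The medium at 0 h, without BMP2, held Noggin, which blocks BMPs, R-spondin, epidermal growth factor, the GSK3 inhibitor CHIR99021, which raises Wnt signalling, and valproic acid, which inhibits histone deacetylases. The 72 h organoids had been without CHIR99021, valproic acid and Noggin and with 100 ng/mL recombinant BMP2 for that time, so that the loss of these agents and the gain of BMP2 cannot be told apart. Epidermal growth factor and R-spondin were shared by both groups. Each time point is 1 library, which leaves no replicate check on any difference below, and libraries of 24 h and 48 h were not analysed here. Intervals in brackets are exact 95% intervals that cover counting error only.

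Bone morphogenetic proteins bind receptor kinases that phosphorylate SMAD transcription factors, and their activity rises from the crypt, where stem cells divide, toward the villus tip. Enterocytes, the absorptive cells, change their programme as they climb, from antimicrobial genes low on the villus to nutrient transporters in the middle and purine and adhesion genes at the tip. Much of this programme is known to be run by enhancers, accessible stretches far from promoters, bound by HNF4, CDX and GATA factors.

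Most members lie away from promoters, and no genome sequence was used for those. The sequences below are stretches of RefSeq promoter windows (build GRCm38.p6, that is mm10) of 8 of the 9 list genes whose window a member overlapped: 7 enterocyte genes and Lyz1, a Paneth cell lysozyme. The ninth, Kcnip4 of the neuronal list, falls past the limit of 8 set for printing. They are shown because a member overlapped the promoter window, while no other peak class overlapped any of these windows. Each runs 5′ to 3′ on the gene's strand from 250 bases before the gene start to 10 bases after it, and capitals mark letters of any of the motifs listed with the promoter results, on either strand.
Il18 (chr9:50554450-50554709, plus strand): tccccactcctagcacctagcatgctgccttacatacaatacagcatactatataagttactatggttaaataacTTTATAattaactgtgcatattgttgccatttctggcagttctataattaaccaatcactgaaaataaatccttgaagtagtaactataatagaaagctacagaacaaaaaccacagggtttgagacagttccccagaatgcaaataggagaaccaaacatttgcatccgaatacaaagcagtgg
Slc2a2 (chr3:28697653-28697912, plus strand): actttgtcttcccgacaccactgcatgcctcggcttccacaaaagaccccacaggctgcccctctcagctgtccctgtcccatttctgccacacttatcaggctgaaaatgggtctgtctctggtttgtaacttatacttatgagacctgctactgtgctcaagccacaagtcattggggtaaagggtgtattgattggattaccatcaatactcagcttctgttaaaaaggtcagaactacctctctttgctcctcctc
Slc6a19 (chr13:73692627-73692886, minus strand): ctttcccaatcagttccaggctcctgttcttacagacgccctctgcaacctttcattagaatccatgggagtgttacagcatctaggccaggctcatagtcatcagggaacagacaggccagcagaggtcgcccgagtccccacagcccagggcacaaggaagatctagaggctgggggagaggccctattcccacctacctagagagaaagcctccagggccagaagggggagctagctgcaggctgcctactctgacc
Fabp1 (chr6:71199629-71199888, plus strand): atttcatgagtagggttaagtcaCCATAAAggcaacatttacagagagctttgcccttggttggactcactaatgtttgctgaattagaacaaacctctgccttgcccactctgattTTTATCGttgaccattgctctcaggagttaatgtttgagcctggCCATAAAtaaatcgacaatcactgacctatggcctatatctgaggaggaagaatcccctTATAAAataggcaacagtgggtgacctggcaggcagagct
Apoa4 (chr9:46240594-46240853, plus strand): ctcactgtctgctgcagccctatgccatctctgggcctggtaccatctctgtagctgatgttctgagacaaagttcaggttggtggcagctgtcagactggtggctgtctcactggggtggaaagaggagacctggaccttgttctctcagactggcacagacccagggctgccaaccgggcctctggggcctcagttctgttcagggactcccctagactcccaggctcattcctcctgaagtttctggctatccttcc
Mgam (chr6:40628581-40628840, plus strand): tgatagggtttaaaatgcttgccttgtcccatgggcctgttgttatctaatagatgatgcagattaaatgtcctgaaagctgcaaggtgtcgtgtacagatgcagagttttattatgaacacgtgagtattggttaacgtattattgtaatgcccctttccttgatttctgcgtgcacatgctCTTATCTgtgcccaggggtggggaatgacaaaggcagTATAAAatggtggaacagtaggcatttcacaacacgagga
Tmprss15 (chr16:79091088-79091347, minus strand): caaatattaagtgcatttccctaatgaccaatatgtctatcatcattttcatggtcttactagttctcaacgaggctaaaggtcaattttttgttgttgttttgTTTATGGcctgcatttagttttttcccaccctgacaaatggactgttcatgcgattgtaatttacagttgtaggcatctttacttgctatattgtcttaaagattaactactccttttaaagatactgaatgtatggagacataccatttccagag
Lyz1 (chr10:117292859-117293118, minus strand): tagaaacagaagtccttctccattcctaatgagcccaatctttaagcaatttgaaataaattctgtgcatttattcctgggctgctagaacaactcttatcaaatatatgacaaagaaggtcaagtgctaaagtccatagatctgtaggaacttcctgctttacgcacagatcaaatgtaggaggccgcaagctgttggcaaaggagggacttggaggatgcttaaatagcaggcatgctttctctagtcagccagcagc
Fabp1, a fatty acid carrier of the enterocyte, has the most capitals: its window carries the CDX letters at 227, 133 and 89 bases and TATAAA at 30 bases before the gene start. In the window of Mgam, maltase-glucoamylase of the brush border, the GATA letters begin 67 bases and TATAAA 30 bases before the start. Tmprss15, the enteropeptidase that activates trypsinogen, has the CDX letters at 146 bases before its start. Il18, an interleukin made by epithelium, has only TATAAA, on the other strand. The windows of Slc2a2 and Slc6a19 (glucose and neutral amino acid transporters), Apoa4 (an apolipoprotein) and Lyz1 hold none of the letters searched.

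Weak peaks made up the larger share of what was found at 72 h only. Of the 12509 peaks at 72 h without a 0 h overlap, which were 30.5% of 72 h peaks on these chromosomes, 63.9% (63.1 to 64.8) were weak, against 28.4% (27.9 to 28.9) of the 72 h peaks that a 0 h peak overlapped. These shares follow from the rule and are given as a description. Of all weak 72 h peaks 49.7% were members, and of strict 72 h peaks, those in the 1e-10 list, 18.1% (17.6 to 18.6) had no 0 h overlap. The 0 h library had 6097 weak peaks of its own, so that the 72 h to 0 h ratio was 1.31 for weak peaks found in 1 library only, beside 3.56 for strict ones (4513 and 1268). No member was among the regions the authors list as enriched at 72 h. How that list relates to the strict list was not examined, so the absence may follow from the rule.

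A small share of the members lay at the edge of the rule, and the number of members changed with the cut. The gap from a member to the nearest 0 h peak had a median of 11.1 kb (quartiles 3.78 and 31.6), and 1296 members had a gap of 50 kb or more. Just inside the rule, 163 members (2.04%) lay under 100 bp from a 0 h peak and a further 686 (8.58%) under 1 kb. Just outside it, 187 weak 72 h peaks were overlapped by 100 bp or less, while 5829 of the 8108 overlapped ones shared over 500 bp. For 763 members the neighbouring 0 h peaks have numbers that skip, so a 0 h peak left out of the list could lie between them; whether one overlapped a member was not tested. Another 72 h peak outside the rule overlapped 279 members (3.49%), and for 214 of them it was a strict 72 h-only peak.

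The members were mostly distal, and in place they were close to the strict 72 h-only peaks. Within 1 kb of either boundary of a protein-coding gene lay 614 members, 7.68% (7.10 to 8.28). Inside genes and farther from the boundary lay 47.9% (46.8 to 49.0), outside but within 50 kb 31.5% (30.4 to 32.5), and farther than that 13.0% (12.2 to 13.7). The strict 72 h-only peaks had 5.87%, 48.4%, 32.5% and 13.3% in the same order. The odds ratio of lying inside genes, members against those, was 0.981 (0.912 to 1.06), an interval that includes 1, and at gene boundaries it was 1.33 (1.15 to 1.55). The latter became 1.10 (0.988 to 1.22) when a 0 h peak had to cover the greater part of a 72 h peak to count, which also took the share at boundaries from 7.68% to 12.8%.

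Against the other weak peaks the members stood farther from gene starts. Weak peaks found at 0 h only lay at gene boundaries in 16.9% (16.0 to 17.9) of cases, and weak 72 h peaks shared with 0 h in 34.5% (33.5 to 35.6). The odds ratio for members was 0.409 (0.367 to 0.455) against the former and 0.158 (0.143 to 0.173) against the latter. When a gap of 1 kb or more to the other library was required, the shares were 5.40% for members and 14.2% for weak 0 h-only peaks, an odds ratio of 0.345 (0.303 to 0.393). The median distance from a member to the nearest gene start was 27.5 kb, beside 29.0 kb for strict 72 h-only, 23.7 kb for weak 0 h-only and 11.8 kb for shared weak peaks.

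**Figure D1:**
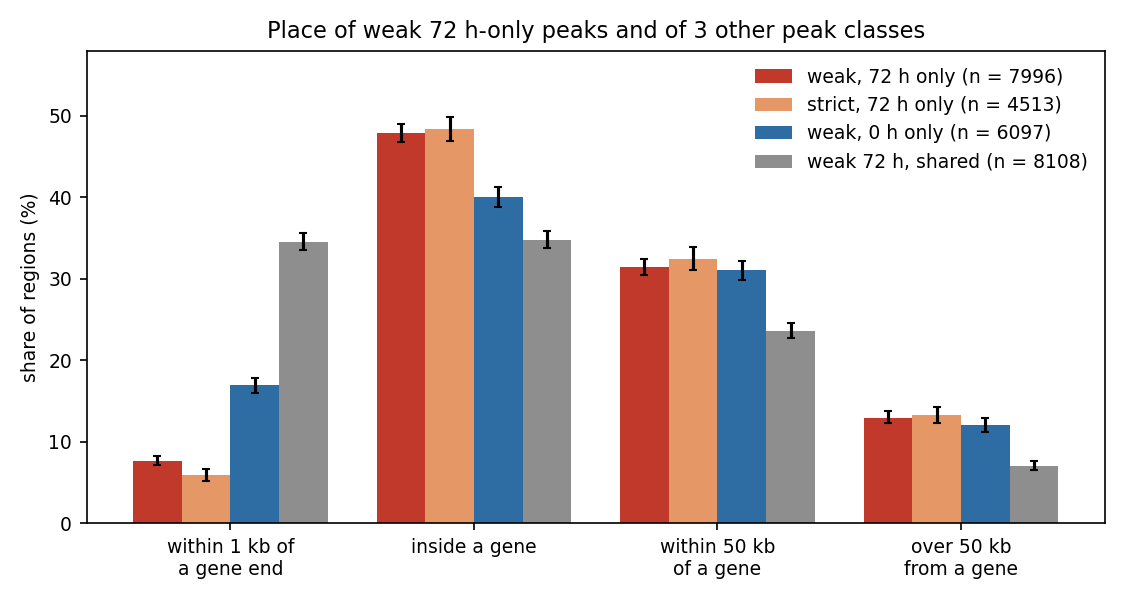
Share of regions (%) by place relative to protein-coding genes, for members (weak, 72 h only) and 3 other peak classes; bars start at 0 and error bars are exact 95% intervals of counting. Both 72 h-only classes stand below 8% at gene boundaries, where weak 0 h-only peaks reach 16.9% and shared weak peaks 34.5%.

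**Figure D2:**
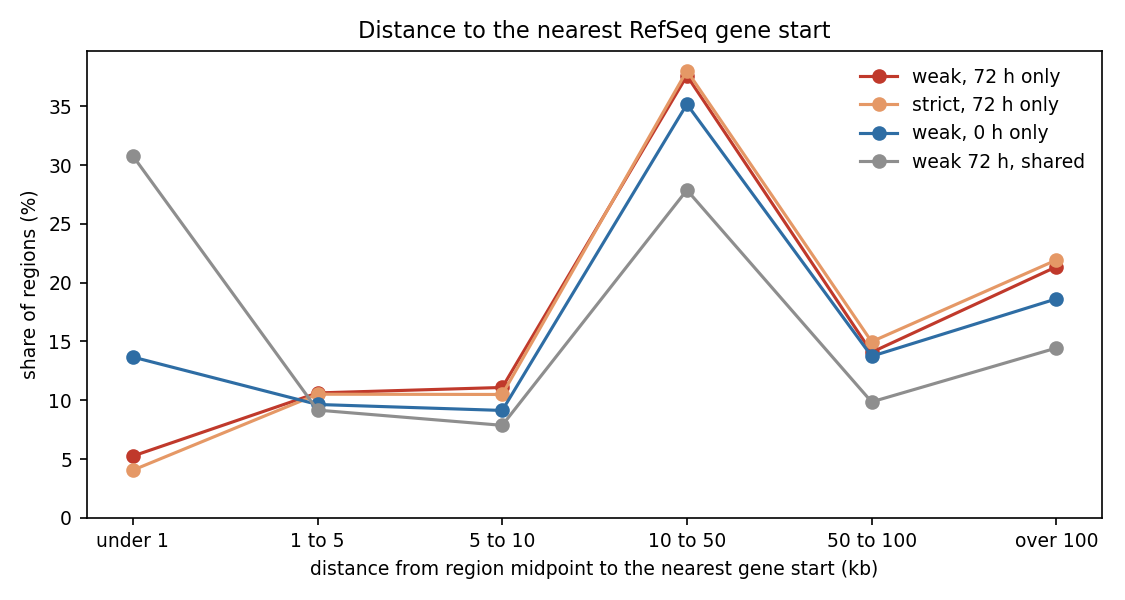
Share of regions (%) by distance from the region's midpoint to the nearest RefSeq gene start (kb, bins of unequal width, joined by lines for reading only), for the same 4 classes. Under 1 kb the members are at 5.25% and shared weak peaks at 30.8%, and the 2 classes found at 72 h only run nearly together.

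The bar chart of place and the plot of distance to the gene start show the same split from the gene's side. Under 1 kb from a start lay 5.25% of members, 4.05% of strict 72 h-only peaks and 13.7% of weak 0 h-only peaks. Between 10 and 50 kb lay 37.6% of members, and over 100 kb lay 21.4%.

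Members stood nearer to strict 72 h-only peaks than other weak peaks did. A strict 72 h-only peak lay within 10 kb of 1161 members, 14.5% (13.8 to 15.3), of 8.24% (7.65 to 8.86) of shared weak peaks and of 7.09% (6.45 to 7.76) of weak 0 h-only peaks. Away from gene boundaries the shares were 14.6%, 8.44% and 7.58%. The odds ratio for members was 1.86 (1.65 to 2.09) against shared weak and 2.09 (1.84 to 2.37) against weak 0 h-only peaks. Against strict 72 h peaks shared with 0 h, at 11.3%, it was lower, 1.34 (1.23 to 1.47). Overlapping 72 h peaks count here as neighbours, whereas by definition a weak 0 h-only peak cannot overlap a 72 h peak. The odds ratios were not recomputed without overlapping peaks. Without the members overlapped by another 72 h peak, a choice made after the data were seen, the members' share was 12.2%. When members were chosen against the strict 0 h list only, it was 22.3%. Another member lay within 10 kb of 1706 members (21.3%). Other classes came close to this: 19.8% of weak 0 h-only and 18.1% of strict 72 h-only peaks had another of their own class that near. Of the members 693 (8.67%) had no other peak of either library within 50 kb. That share lay between 7.002% of strict 72 h-only and 11.5% of weak 0 h-only peaks.

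Chained at gaps of up to 10 kb, 6231 members stood alone, 687 runs held 2 and 107 held 3. The longest run held 7 members over 23.7 kb at chr17:47441330-47465073 in AI661453, with 3 peaks of the 0 h library between them. Near Hpgd, which encodes the enzyme that inactivates prostaglandins, 6 members and 1 strict 72 h-only peak stood at chr8:56318385-56346543 with no 0 h peak in between. A run of 6 spanned Gpatch1 and Rhpn2 at chr7:35295584-35330156. Of 3 runs of 5, 1, tied with the others and named after its values were seen, lay at Pisd, at chr5:32723685-32748113, with 5 peaks of the 0 h library between its members. The others lay at Hk2, a hexokinase of the first step of glycolysis, at chr6:82747034-82768630, and between Cdc42, which acts in cell polarity, and Cela3a, a pancreatic-type elastase, at chr4:137370214-137393178.

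Assigned to the gene that contains them or lies nearest within 50 kb, 6959 members fell to 4691 protein-coding genes, 30.9% of the 15191 genes with a peak in either library. Members and strict 72 h-only peaks met at 1506 genes, while 3185 genes had a member and no strict 72 h-only peak. Of the genes with a strict 72 h-only peak 53.1% (51.3 to 55.0) had a member, and of the others 25.8%. With weak 0 h-only peaks the split was smaller, 35.8% (34.3 to 37.4) against 29.1% (28.3 to 30.0). Gene length moves with having a member: genes with one span a median of 39.3 kb, and all genes with a peak 23.5 kb; the part of length in these splits was not tested. For 511 genes members were the only peaks in either library.

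The 15 genes named for the most member sites are 14 with 7 or more sites and 1, AI661453, taken from those with 6 sites and 7 members by alphabetical order before Dyrk1a, Fhit, Gpatch1 and Hpgd. Kif16b, a kinesin that carries early endosomes, had 9 members and 5 strict 72 h-only peaks, and 16 peaks at 72 h against 2 at 0 h. Ppargc1a, the PGC-1α coactivator of mitochondrial and fat-burning genes, also had 9 members, with 1 strict 72 h-only peak and 15 peaks against 5. Neither had a peak found at 0 h only. Pip5k1b, a lipid kinase that makes PIP2, had 8 members. Pam, which amidates peptide hormones, and Ptprg, a receptor phosphatase, had 7 each and no 0 h-only peak. Mecom, a zinc finger transcription factor, had 7 members beside 6 strict 72 h-only and 2 weak 0 h-only peaks.

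Peaks of both directions stood together in other genes of that group. Abr had 7 members and 5 weak 0 h-only peaks, and AI661453 had 7 members, in 6 sites, and 4. Arhgap26, Gse1, Lpp, Prkce, Sox6, Ttc7b and Zmiz1 had 7 members each, with 1 to 5 strict 72 h-only and 1 to 3 weak 0 h-only peaks. All of these but Sox6 also had 1 strict 0 h-only peak. The stacked bars of these genes show the counts side by side. The 68 genes with 5 or more sites span a median of 205.9 kb.

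**Figure D3:**
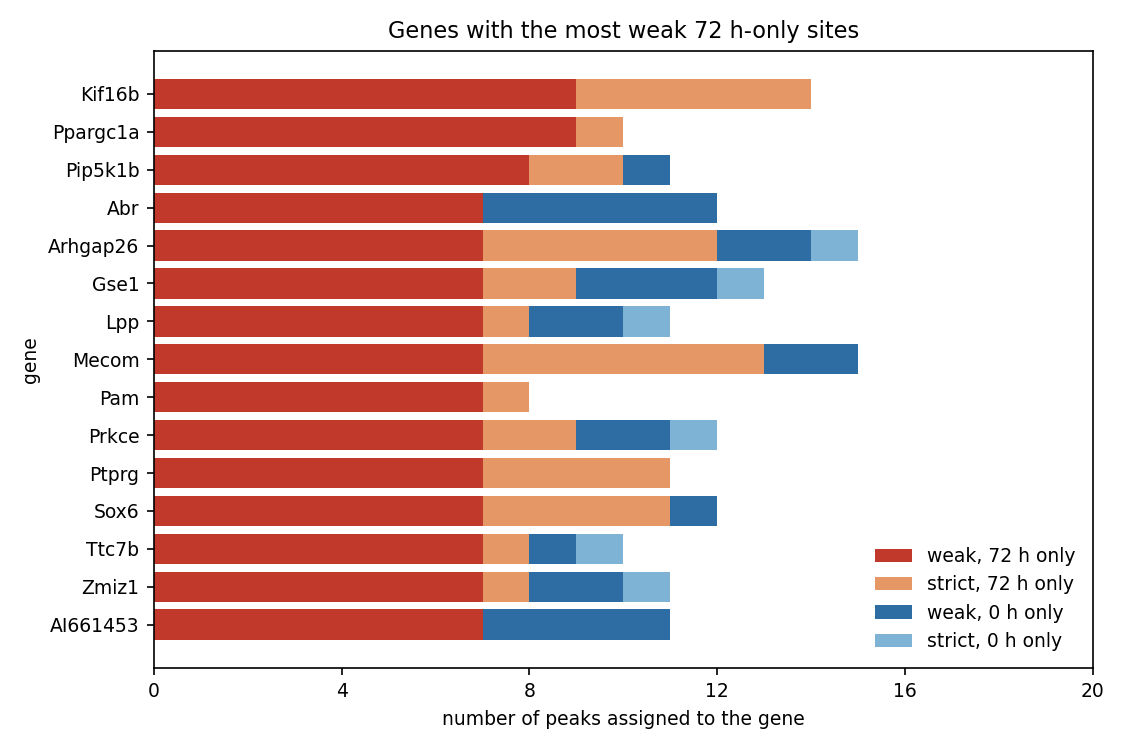
Number of peaks assigned to each of the 15 genes with the most member sites, stacked by class (weak and strict, 72 h only and 0 h only). Kif16b and Ppargc1a have 9 members and no 0 h-only peak, whereas Abr has 7 members and 5 weak 0 h-only peaks.

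Members stood at most of the enterocyte genes with a peak. In the 5 enterocyte lists pooled, 57 of 95 genes with a peak had a member, 60.0% (49.4 to 69.9), beside 30.9% of all genes with a peak; the median was 1 member a gene, and 0 over all genes. The same genes held 100 members and 33 weak 0 h-only peaks; 28 of them (29.5%) had one of the latter, where 26.0% of all genes did. Strict 72 h-only peaks were at 58 of the 95, and 23 genes had a member and no strict 72 h-only peak. The lists were chosen with earlier results of these data known, and the median span of these genes was 27.2 kb. Some other lists had shares of genes with a member as high, among them neuronal genes at 61.9% and endothelial genes at 75%. Others were lower, such as stem cell genes at 40.7%.

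Nutrient transporters and fat carriers of the middle villus had members at 12 of 17 genes (70.6%), beside 30.9% of all genes with a peak. Slc15a1, the peptide transporter PEPT1, had 13 peaks at 72 h and 5 at 0 h; 5 of the former were members and 3 strict 72 h-only. Fabp2, an intestinal fatty acid carrier, had 3 members among 6 peaks at 72 h, all 3 with a strict 72 h-only peak within 10 kb. Fabp1 had 4 peaks at 72 h, of which 2 were members, and none at 0 h. One of these is the member at its start, chr6:71199499-71200099. Mttp, which loads fat onto apolipoprotein B, had 2 members inside the gene, and Slc2a2 and Slc6a19 had 2 each. Apoc3, an apolipoprotein next to Apoa4, had 1 peak in all, a member at chr9:46235439-46236039, 0.103 kb from the gene.

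Brush border and digestive genes had members at 15 of 23 genes (65.2%), beside 30.9% of all genes with a peak. Ezr, the ezrin that ties membrane to actin in microvilli, had 5. Mgam had 4, beside 7 strict 72 h-only peaks, and 15 peaks at 72 h against 4 at 0 h. Dpp4, a dipeptidyl peptidase, had 3. Alpi, the intestinal alkaline phosphatase, had 2 among its 5 peaks at 72 h, and the 0 h library had no peak there. At Naaladl1, a peptidase, 2 members were the only peaks of either library. Low on the villus 5 of 10 genes had members, among them Nos2, the inducible nitric oxide synthase, whose 2 members were again its only peaks. Reg3b, an antimicrobial lectin, and Ccl25, a chemokine, had 2 each, and Reg3g had 1. At the tip 9 of 19 had one, with 2 each at Klf4, a transcription factor of differentiated epithelium, and Xdh, xanthine dehydrogenase, and 1 each at Atf3 and Efna1.

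Lipid handling genes had members at 16 of 26 genes (61.5%) and weak 0 h-only peaks at 6 (23.1%). Over all genes with a peak the shares were 30.9% and 26.0%. Ppara, a nuclear receptor that turns on fatty acid oxidation, had 4 members and 4 strict 72 h-only peaks, and 12 peaks at 72 h against 6 at 0 h. Dgat2 and Mogat2 encode enzymes of triglyceride synthesis and are neighbours on chromosome 7. Each had 3 members, all inside the gene, between positions 99162027 and 99230574. Dgat2 had no strict 72 h-only peak and Mogat2 had 2. Scarb1, a lipoprotein receptor, had 3 of each kind.

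Transcription factors of the intestine had members at 20 of 32 genes (62.5%) and weak 0 h-only peaks at 17 (53.1%). Over all genes with a peak the shares were 30.9% and 26.0%. After Mecom came Tcf7l2, the Wnt effector TCF4, with 5 members, then Bcl6 and Nr5a2 with 3 each. Nr5a2, the nuclear receptor LRH-1, had as many weak 0 h-only peaks. In the BMP pathway 10 of 18 genes had a member and 5 had a weak 0 h-only peak. The receptors Acvr1 and Bmpr1a had 3 and 2, the signal carrier Smad1 had 2 and the target Id2 had 2. The Acvr1 members all lay inside the gene, and Id2 had 1 at chr12:25097113-25097713, 1.32 kb outside it. Id1, a direct target of BMP signalling, had 5 peaks at 72 h and no member.

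Stem cell and Wnt target genes had the reverse balance of weak peaks. Members stood at 11 of 27 genes, 40.7% (22.4 to 61.2), beside 30.9% of all genes with a peak. Weak 0 h-only peaks were at 17 (63.0%), beside 26.0% of all genes with a peak. The counts were 17 members against 31 peaks. Hopx, a marker of reserve stem cells also made in other cells, had 4 members and no weak 0 h-only peak. Cd44, a hyaluronan receptor, had 2 against 4, Axin2 1 against 3 and Smoc2 1 against 3. Lgr5, the receptor that marks crypt base stem cells, had 0 against 2 and 1 strict 72 h-only peak. Tcf7, another Wnt effector, had 2 members against 0, and Cdca7 2 against 1. Rgmb and Sp5 had 1 against 0 each, and Lrig1, Msi1 and Slc12a2 had 1 against 1 each. Of 20 cell cycle genes only Bub1, a mitotic checkpoint kinase, had a member, and 2 had weak 0 h-only peaks.

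In the secretory lists the shares of genes with a member stand beside 30.9% of all genes with a peak. Members were at 6 of 14 enteroendocrine genes (42.9%), 1 each, and weak 0 h-only peaks at 5. At Cck (cholecystokinin), Gcg (proglucagon), Sst (somatostatin) and Chga (chromogranin A), hormones and a granule protein of enteroendocrine cells, the member was the only peak of either library. The Cck member lay at chr9:121500923-121501523, 5.53 kb from the gene, that of Gcg at chr2:62451505-62452105, 22.7 kb from it, that of Sst at chr16:23898720-23899320, 7.68 kb from it, and that of Chga at chr12:102550456-102551056. Pax4 and Pax6, factors of endocrine fate, had 1 each beside peaks at 0 h. Other genes of the list went the other way: Insm1, Neurod1, Tph1, Isl1 and Lmx1a had 0 h-only peaks and no peak at 72 h. The 0 h-only peak of Isl1 and 1 of those of Lmx1a were strict. Chgb had a peak shared by both libraries, and Gip and Sct had 1 strict 72 h-only peak each. Among goblet genes 5 of 13 (38.5%) had members and 2 had weak 0 h-only peaks, with 2 members at Muc2, the main mucin, and 1 each at Agr2, Creb3l1 and Fcgbp. Tuft genes had members at 5 of 10 and weak 0 h-only peaks at 3, with 2 members each at Plcg2 and Sh2d6. At Gnat3, the taste G protein, the only peak was a member 33.9 kb away. Lyz1 was the only one of 4 Paneth genes with members, 2 of them, and 3 of the 4 had weak 0 h-only peaks.

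Genes of tissues that the organoids should lack also held members. Of the lists outside the epithelium, 5 of 9 fibroblast and smooth muscle genes (55.6%) and 6 of 8 endothelial genes (75%) had one. The counts were 13 of 21 for neuronal genes (61.9%) and 0 of 3 for immune genes, beside 30.9% of all genes with a peak. Weak 0 h-only peaks were at 2, 5, 11 and 0 of the same genes. Myh11, a smooth muscle myosin, Pecam1 and Sox17, both of endothelium, had 2 each, and Adgrl3, Lingo2 and Ptprd, adhesion proteins of neurons, 4 each. The neuronal genes span a median of 1136 kb. Ptprc, Cd3e and Cdh5, defining markers of blood, T and endothelial cells, had no peak in either library. Col1a1, a fibroblast collagen, had 4 peaks at 72 h and 5 at 0 h, none of them a member. The endothelial genes Vwf, Flt1, Tek and Sox17 and the immune genes Spi1 and Itgam had peaks in both libraries. Csf1r, also of the immune list, had 1 strict 72 h-only peak. The epithelial markers Epcam and Krt8 had 10 and 4 in each. Whether such members come from other cells was not tested. Of 13 fetal-like and injury genes 3 had members (Krt19, Areg and Spp1) and 6 had weak 0 h-only peaks.

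**Figure D4:**
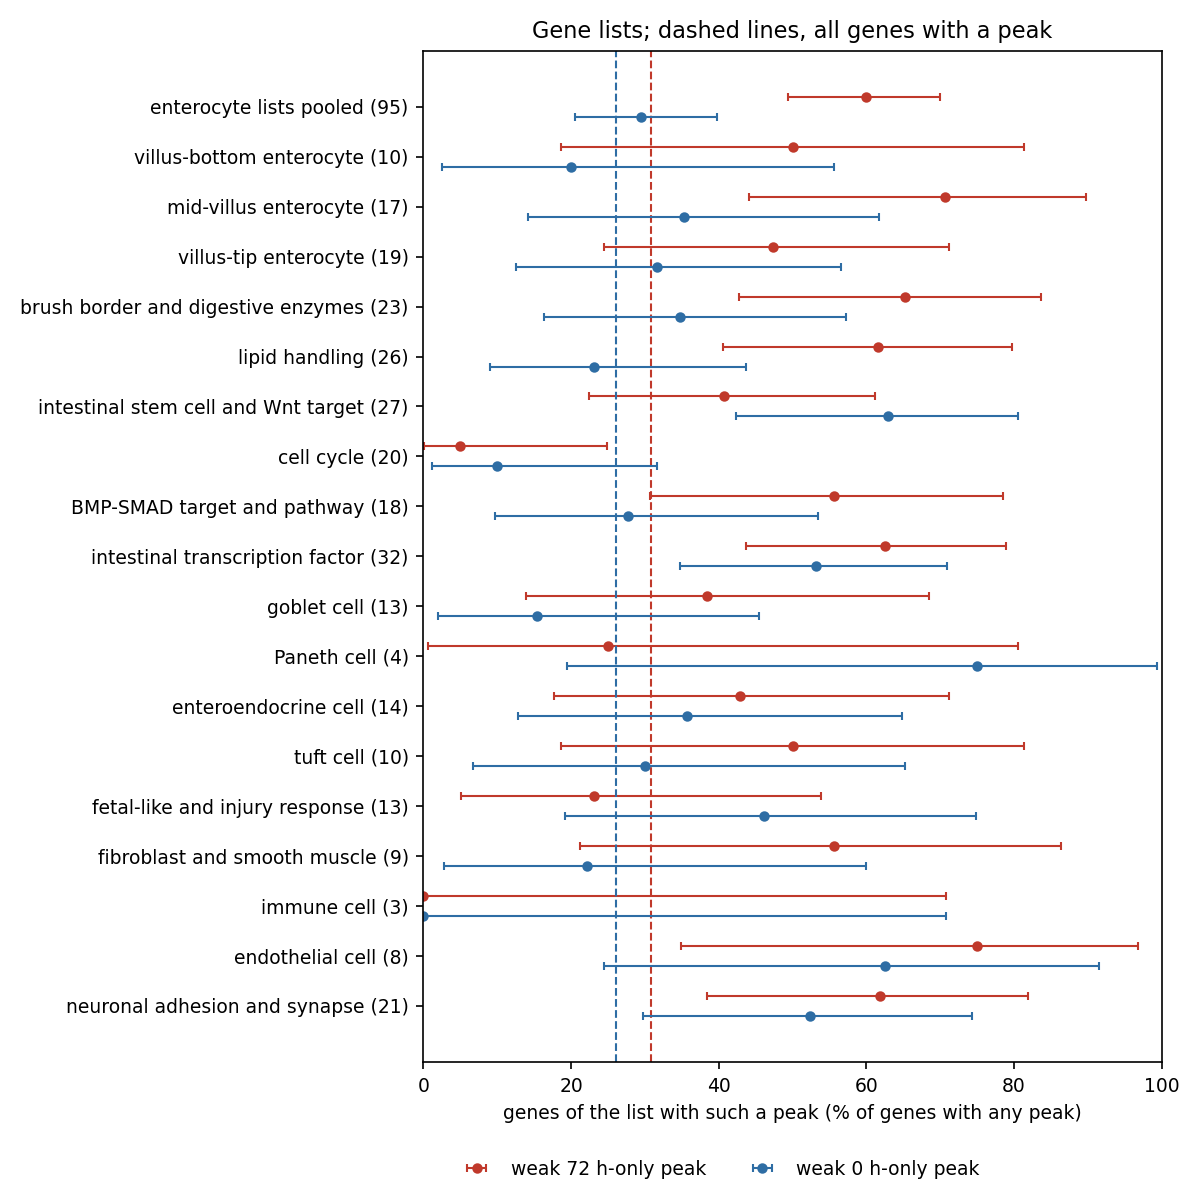
Share (%) of the genes with any peak in each list that had a member (red) or a weak 0 h-only peak (blue), with exact 95% intervals; the number of genes is in brackets and dashed lines give all genes with a peak (30.9% and 26.0%). In the pooled enterocyte lists the shares are 60.0% and 29.5%, and in the stem cell list 40.7% and 63.0%. Member shares outside the epithelium are 75% (endothelial), 61.9% (neuronal), 55.6% (fibroblast and smooth muscle) and 0% (immune).

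The plot of gene lists sets both directions beside the background, and both moved with the span of the genes. Of genes up to 10 kb long 18.4% had a member and 19.7% a weak 0 h-only peak, and of genes of 100 to 300 kb 53.7% and 43.3%. Members were the commoner of the 2 in each span class above 10 kb.

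Few members reached a promoter. Of 7747 members on chromosomes with RefSeq windows (250 bases before to 50 after a gene start), 200 overlapped one, 2.58% (2.24 to 2.96), beside 2.57% of strict 72 h-only, 8.81% of weak 0 h-only and 22.1% of shared weak peaks. They touched 208 of 21045 windows, 0.988%, of 195 genes. These windows were poor in CpG, the dinucleotide that marks most housekeeping promoters: their median was 6 CpG, against 5 for strict 72 h-only, 20 for weak 0 h-only, 22 for shared weak peaks and 13 over all windows. Under 10 CpG had 64.4% (57.5 to 70.9) of the members' windows, 72.4% of those of strict 72 h-only and 17.6% of those of weak 0 h-only peaks. The share was 42.7% over all windows and 79.0% of windows without a peak in either library. The odds ratio was 8.42 (5.79 to 12.3) against weak 0 h-only peaks and 0.690 (0.411 to 1.14) against strict 72 h-only peaks.

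Of 81 enterocyte genes with a window, members overlapped that of 7, strict 72 h-only peaks 13, weak 0 h-only peaks 5 and strict 0 h-only peaks 0. The 7 are those printed above. The Il18 member covers 248 bases of the window and ends just before the gene start; its midpoint lay in the neighbour Bco2, and it is counted there among genes.

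For the windows 10 motifs were searched on both strands. The core of the HNF4 motif was spelled CAAAGTC. For the GATA family the letters were AGATAAG, for the CDX family TTTATNG and for the AP-1 family TGANTCA. TCF and LEF factors were searched as ATCAAAG, the ETS family as CCGGAAG and the KLF family as CACACCC. The SMAD motif was spelled GGCGCC, the CREB motif TGACGTC and the box bound by the TATA-binding protein TATAAA. The TCF and HNF4 letters, and the CDX and TATAAA letters, can overlap each other. The HNF4 core was in 9.62% (5.97 to 14.5) of the members' windows, 15.7% (9.89 to 23.3) of strict 72 h-only, 3.23% (1.89 to 5.11) of weak 0 h-only and 4.17% of all windows. CDX letters were in 13.5%, 20.5%, 6.07% and 9.49% in the same order, and TATAAA in 14.4%, 20.5%, 7.59% and 12.7%. ETS letters were in 3.85% of the members' windows and 11.7% of all, and SMAD letters in 9.62% and 15.5%; windows without a peak held them in 2.73% and 5.89%, below the members' values. Windows without a peak, which are poor in CpG as well, held the HNF4 core in 4.83%, CDX in 13.3% and TATAAA in 20.1%. The members' values for CDX and TATAAA were thus at or below those of windows without a peak, and that for the HNF4 core was above.

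**Figure D5:**
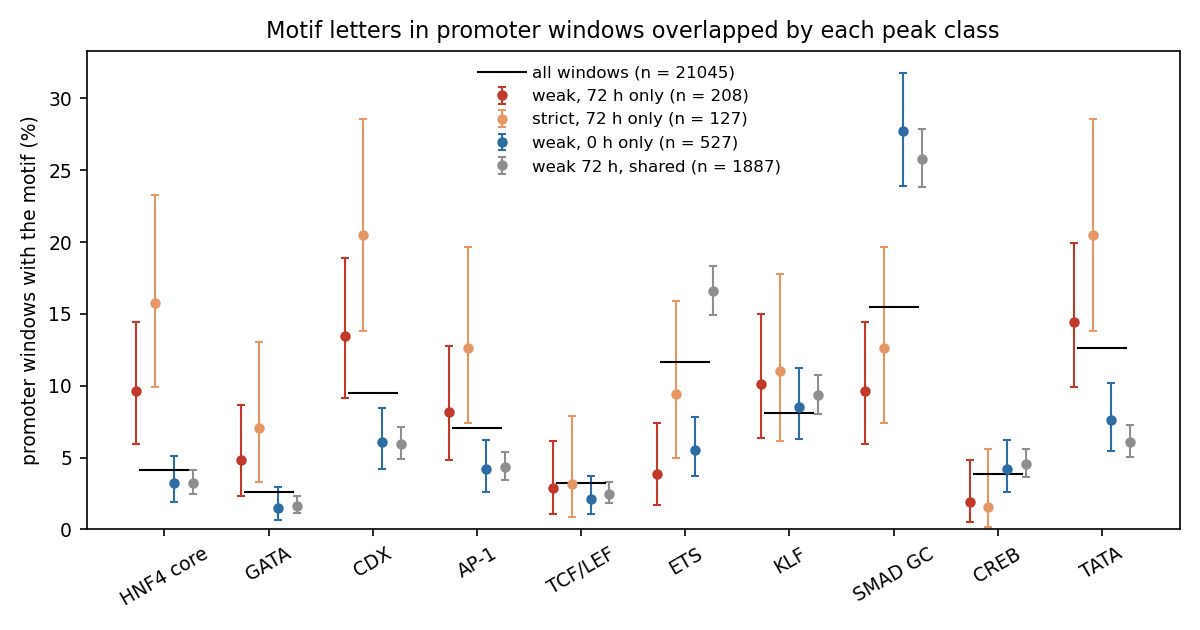
Share (%) of promoter windows with each motif's letters on either strand, for windows overlapped by members and by 3 other classes; points with exact 95% intervals, and black dashes for all windows. The HNF4 core is at 9.62% in the members' windows against 4.17% in all, and ETS at 3.85% against 11.7%.

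The dot plot of motifs rests on few windows for the members, 20 with the HNF4 core, of 19 genes. Chosen after the values were seen, 3 are printed for their role in the absorptive epithelium, with capitals for the HNF4 core only. Enpp7 is the intestinal alkaline sphingomyelinase, Aoc1 a diamine oxidase that degrades histamine, and Cyp3a11 a drug-metabolising cytochrome P450.
Enpp7 (chr11:118987931-118988190, plus strand): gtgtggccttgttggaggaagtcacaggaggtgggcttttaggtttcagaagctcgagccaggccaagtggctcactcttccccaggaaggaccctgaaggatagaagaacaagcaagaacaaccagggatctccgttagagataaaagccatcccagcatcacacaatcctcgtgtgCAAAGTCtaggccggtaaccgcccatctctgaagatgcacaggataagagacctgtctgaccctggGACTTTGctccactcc
Aoc1 (chr6:48895005-48895264, plus strand): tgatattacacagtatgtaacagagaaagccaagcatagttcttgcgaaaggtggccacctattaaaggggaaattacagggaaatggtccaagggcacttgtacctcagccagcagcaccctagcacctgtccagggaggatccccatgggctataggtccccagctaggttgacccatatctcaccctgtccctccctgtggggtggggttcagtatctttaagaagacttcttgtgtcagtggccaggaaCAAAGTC
Cyp3a11 (chr5:145879845-145880104, minus strand): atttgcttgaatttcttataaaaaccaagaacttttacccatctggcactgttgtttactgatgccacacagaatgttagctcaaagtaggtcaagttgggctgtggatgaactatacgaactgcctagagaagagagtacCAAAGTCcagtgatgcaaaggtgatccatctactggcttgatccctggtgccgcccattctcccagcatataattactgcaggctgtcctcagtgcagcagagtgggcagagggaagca
In Enpp7 the letters begin at 72 bases and, on the other strand, at 6 bases before the gene start. In Aoc1 they begin 3 bases after the first base of the gene, and in Cyp3a11 109 bases before the gene start. The other windows of this group belong to Gimd1, Rnf183, Ccdc24, Pafah2, 1700028K03Rik, 1600014C10Rik, Cspg4 and Slc34a1. They also belong to Rab11fip3, Ppt2, Trim31, Rab31, Ms4a12, Cyp2c29, Cyp2c68 and Fhl1. A match describes letters in the window and is not a measured site of binding.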

How the data were processed

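Peak lists of the 0 h and 72 h libraries were used, 1 library per time point; the series has 4 libraries. Per the submitters' processing notes, which name mm10, the authors' tools were MACS2 2.2.7.1 for peaks and Bowtie2 2.4.1 for alignment, with cutadapt 1.9.1, bedtools 2.26.0, Picard 2.18.27, SAMtools 1.3.1 and deepTools 3.5.4 beside them. Any Tn5 shift, duplicate removal or other setting is not given in the sources used here. All deposited rows hold region coordinates and a peak name, with no score, signal or count, so depth is unknown and no height was compared. Peaks were called per library, as the names show. Regions were compared by overlap of at least 1 bp and placed by midpoint on RefSeq genes of GRCm38.p6. Exons were not resolved. Gene starts and promoter windows came from RefSeq tables covering chromosomes 1 to 17, 19 and X; windows of chromosome 18 were not used here. Shares carry Clopper-Pearson and odds ratios exact conditional 95% intervals; these treat regions as independent, and no p-value is given. Scripts were tested on simulated data. Named genes include the 15 with the most member sites and up to 4 per list with the most members. Also named are up to 8 list genes with an overlapped promoter window and the 5 longest runs. List genes whose 72 h-only peaks are all members are named only in part. Some genes without a member, among them Lgr5 and Id1, are named for comparison. The members and the 18 gene lists were chosen with earlier results of these data known. Alternatives covered the overlap, the gap, the 0 h list, the place windows and the neighbour distance. Computation ran in Python 3.11.15 with SciPy 1.17.1, pandas 2.3.3 and numpy 2.4.6, and plots in matplotlib 3.10.9.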

Additional observations from a re-analysis of the deposited data

Results flagged for a closer look

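Chromosome Y lies outside the rule and enters no comparison above. The 72 h library had 98 weak peaks there without a 0 h overlap, and the 0 h library had 10 without a 72 h overlap. Of the 98, 82 lay between 50 and 90 Mb. The cause was not tested.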

How the results depend on the processing

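No paired analysis was possible because there is 1 library per time point. Of 72 values recomputed under alternatives, 52 stayed within their interval or, for counts, within 1.5 times. The number of members ran from 7147 to 11925, of genes with a member from 3927 to 6348 and of enterocyte genes with a member from 51 to 70. The other 20 moved. With a 0 h peak required to cover the greater part of a 72 h peak, 12.8% of members lay at gene boundaries, 45.6% inside genes and 12.1% in gene-poor stretches, the odds ratio at boundaries against strict 72 h-only peaks was 1.10, and 15.5% lay within 10 kb of a strict 72 h-only peak. With only the 1e-10 list at 0 h, the shares were 11.9% at boundaries, 45.9% inside genes, 11.7% in gene-poor stretches and 22.3% near strict peaks, and weak peaks were 59.6% of 72 h-only peaks. With a 1 kb gap, 5.40% lay at boundaries and 13.8% in gene-poor stretches. A boundary window of 500 bp gave 3.89% and one of 2 kb 12.8%, with 50.4% and 44.9% inside genes. Neighbour distances of 5 and 50 kb gave 9.15% and 39.3%; leaving out members that another 72 h peak overlaps, chosen after seeing the data, gave 12.2%. Promoter overlap by midpoint gave 1.61%. Wider and narrower windows and distances change what is counted; for the other moves the cause was not tested. Depth is unknown, so no limit of detection can be given for 0 h at a member.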

Other observations

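Members overlapped 4 microRNA hairpins of the RefSeq table: Mir7011, Mir207, Mir7020 and Mir680-2. The share of regions over a hairpin was 0.050% for members and 0.044% for strict 72 h-only peaks. It was 0.115% for weak 0 h-only and 0.259% for shared weak peaks. At Aoc1, 3 members, the one at its promoter window among them, stood within 1.57 kb. Some of them overlap each other, so they are not 3 separate sites. Runs of 4 lay at Slc16a1, a monocarboxylate transporter, Sema4a, a semaphorin, and Slc44a1, a choline transporter. Members made up between 16.3% of the 72 h peaks of chromosome X and 21.8% of those of chromosome 3.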
